A study of Homo sapiens with 23 samples.

Results

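The genes described here encode the proteins of the cytosolic ribosome. They were chosen by name: a gene was a member when its symbol was RPL or RPS followed by a number and at most one letter A or X, or was RPLP0, RPLP1, RPLP2 or RPSA, and when its mean level reached 10 TPM (the share of a library's transcripts that a gene takes, corrected for gene length and scaled to a fixed total) in at least 1 of the 8 groups. All 77 genes with such a symbol passed the minimum, out of 60564 genes listed for each library. Of the 77 genes, 31 encode proteins of the small (40S) subunit and 46 encode proteins of the large (60S) subunit. FAU, which encodes a ribosomal protein fused to a ubiquitin-like domain, falls outside the rule and is described with the related genes.

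There were 23 libraries of mRNA from 2 established human tumour cell lines, made by SMART-Seq, which copies polyadenylated RNA from small samples. Caco-2 is a line from a colon carcinoma that forms an intestinal epithelium in culture, and HepG2 is a line from a liver tumour that stands in for hepatocytes. Both were grown in a microfluidic chip that joins a gut and a liver chamber (the iGLC platform), either alone in their chamber circuit (mono-cultured) or linked to the other line by circulating medium (co-cultured). The cells received 1 mM free fatty acids (FFAs, palmitic and oleic acid at 1:2) or no FFAs (control) for 1 day, and the labels give 0.5% fetal bovine serum in the treatment medium. The 4 groups of a line had 3 libraries each, but only 2 were given for control Caco-2 cells in co-culture. There were thus 11 Caco-2 and 12 HepG2 libraries, none of which carried a genetic change made for the study. Each group rests on 1 line, and the study's methods describe repeated independent experiments for mRNA sequencing. Neither they nor the labels say which libraries came from which experiment or culture, so the p-values measure the spread between these libraries, part of which may be technical.

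Each ribosome is built from rRNAs and a set of ribosomal proteins in fixed proportion, so the proteins are needed in near-equal amounts. The 40S subunit binds the mRNA and reads the codons, and the 60S subunit joins amino acids and releases the chain through an exit tunnel. Most mRNAs of ribosomal proteins begin with a cytosine and a run of pyrimidines, the 5′ terminal oligopyrimidine (TOP) motif, through which growth signals that pass the mTORC1 kinase set how much of the mRNA is translated. mRNA levels such as those measured here do not show that translational control.

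The labelled cell types were checked first against their markers. CDX2, an intestinal transcription factor, lay between 60.4 and 136.3 TPM in Caco-2 cells and between 0.02 and 0.73 TPM in HepG2 cells, and the cadherin CDH17 lay between 353.6 and 479.6 TPM against 0.05 to 2.75 TPM. ALB, which encodes albumin, lay between 20460 and 33860 TPM in HepG2 cells. The sum of the 8 hepatic markers was 35150 to 55570 TPM in HepG2 libraries and 2149 to 4362 TPM in Caco-2 libraries, where all 8 reached a mean of 1 TPM in every group, mono-culture included. HPX did not separate the lines (14.2 to 28.1 TPM in Caco-2 and 6.74 to 34.7 TPM in HepG2 cells). The sum of the 8 intestinal markers was 888.8 to 1273 TPM in Caco-2 and 154.5 to 245 TPM in HepG2 libraries. VIL1 made up most of the HepG2 sum, at 153 to 243.8 TPM against 408.3 to 550.6 TPM in Caco-2 cells. LGALS4 (1.17 to 11.35 TPM), KRT20 (0.46 to 2.13 TPM) and GPA33 (0.39 to 2.47 TPM) were low in Caco-2 cells. LGALS4 and KRT20 overlapped the HepG2 levels, which reached 1.51 and 0.57 TPM. CDX1, also among these markers, was at or below 0.18 TPM in every library. The label on RNA extraction speaks of myoblasts, but MYOD1 and MYMK were listed at 0 in all 23 libraries and the 6 muscle markers summed to at most 3.92 TPM.

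The transcript starts show what most of the 77 mRNAs share. RefSeq promoter sequences on GRCh38.p14, each reaching from 250 bases before the annotated start to 50 bases after it, matched 62 of the 77 genes. The windows below hold 30 bases each, 20 before the start and 10 from position 1, the first transcribed base, onwards, 5′ to 3′ on the transcribed strand. Capitals mark a cytosine at position 1 and the unbroken run of C or T that follows it within the window. They are shown for genes with the largest differences between the lines, for the gene with the lowest level (RPL22), and for RPL17 and RPS26, whose annotated starts lack the run.

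RPS3 (chr11:75399498-75399527, plus strand): cttccgcccgcgagccacttCCTTTCCTTT
RPS25 (chr11:119018334-119018363, minus strand): ccgtttctgagcagcgcttcCTTTTTgtcc
RPL41 (chr12:56116613-56116642, plus strand): gtagacggaacttcgcctttCTCTCggcct
RPL21 (chr13:27251538-27251567, plus strand): cgccgcggccccgcctctttCCTTTCggcc
RPS27 (chr1:153990742-153990771, plus strand): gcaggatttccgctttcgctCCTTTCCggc
RPS23 (chr5:82278345-82278374, minus strand): ctccttcctgcggtgcttctCTCTTTCgct
RPLP0 (chr12:120201102-120201131, minus strand): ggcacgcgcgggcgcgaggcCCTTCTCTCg
RPL37A (chr2:216498824-216498853, plus strand): cctgcgcaccgcgtctcttcCTTTCTgggc
RPL29 (chr3:51995886-51995915, minus strand): tgctgcaccgcagcccctttCTCTTCCggt
RPL22 (chr1:6199586-6199615, minus strand): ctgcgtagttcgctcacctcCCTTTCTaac
RPL17 (chr18:49492456-49492485, minus strand): ctcttcctctttccctaagcagcctgaggt
RPS26 (chr12:56041898-56041927, plus strand): gctgggagacacataacctcgattttcttc

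A start with C at position 1 and at least 4 further pyrimidines was found in 46 of the 62 genes (74.2%), against 1404 of the 27305 genes in the whole table (5.14%). Among the 69 mitochondrial ribosomal protein genes in the table, which are not known as TOP mRNAs, 6 had such a start (8.7%). A second description used the full window of 300 bases on both strands. CCGGAAG, the letters of the ETS family site, was present in 22 of the 62 genes (35.5%) against 12.2% of all genes in the table. AAGATGG, the YY1 letters, was present in 8 (12.9% against 7.11%), GGGCGG, the Sp1 letters, in 36 (58.1% against 48.3%), and TATAAA in 5 (8.06% against 14%). These are matches of letters and not measured binding, and a gene with several annotated starts was counted when any of them matched. The 46 genes with a TOP start and the 16 without one had the same median difference between the lines, 0.23 on the log2 scale in both.

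**Figure D1:**
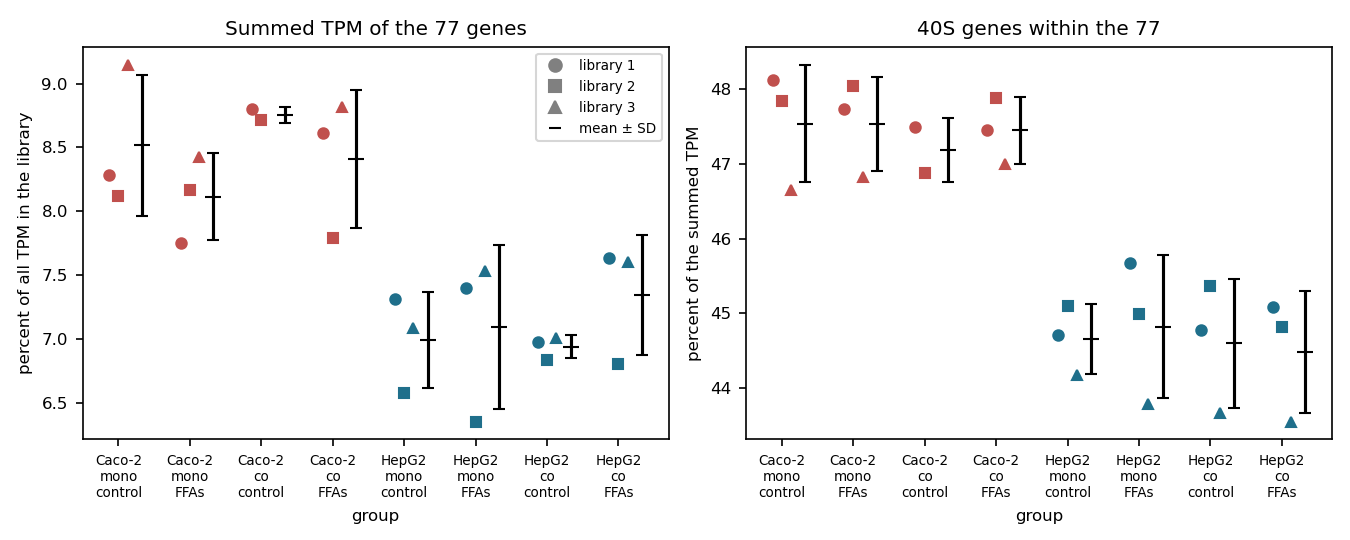
Left, summed TPM of the 77 ribosomal protein genes as a percent of all TPM in each library, by group; right, percent of that sum that came from the 31 genes of the 40S subunit. Points are libraries (circle, square and triangle for libraries 1, 2 and 3), bars are the mean ± SD of a group, red is Caco-2 and blue is HepG2, and neither axis starts at 0. Caco-2 libraries lie between 7.75% and 9.15% and HepG2 libraries between 6.35% and 7.63%, and the triangles have the lowest 40S share of their group in all 7 groups that hold one.

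Together the 77 genes took 6.35% to 9.15% of all TPM in a library. In mono-cultured control Caco-2 cells the 3 libraries gave 8.28%, 8.12% and 9.15%, and with FFAs they gave 7.75%, 8.17% and 8.43%. In co-cultured Caco-2 cells the 2 control libraries gave 8.8% and 8.71%, and the 3 FFAs-treated libraries gave 8.61%, 7.79% and 8.81%. Treated and control libraries thus overlapped in mono-culture and in co-culture.

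In mono-cultured HepG2 cells the control libraries gave 7.31%, 6.57% and 7.09%, and the FFAs-treated libraries gave 7.4%, 6.35% and 7.53%. In co-cultured HepG2 cells the control libraries gave 6.97%, 6.84% and 7.01%, and the FFAs-treated libraries gave 7.63%, 6.8% and 7.6%. Library 2 was the lowest of its group in all 4 HepG2 groups, and no HepG2 library reached the lowest Caco-2 library.

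The FFAs-treated means were 0.40 percentage points below control in mono-cultured Caco-2 cells and 0.35 points below control in co-cultured Caco-2 cells, with a pooled SD within groups of 0.45 points. In HepG2 cells they were 0.10 points above control in mono-culture and 0.41 points above control in co-culture, with a pooled SD of 0.44 points. All 4 differences were smaller than that SD. Co-culture means differed from mono-culture means by 0.24 points in control and 0.29 points in FFAs-treated Caco-2 cells. The matching differences in HepG2 cells were -0.05 points in control and 0.25 points with FFAs, again within the spread between libraries. TPM is a share of the RNA, so these values do not show the amount of these mRNAs per cell.

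The difference between the lines was larger than the spread. The mean over the 4 conditions was 8.45% in Caco-2 and 7.09% in HepG2 cells, 1.36 points apart against a pooled SD of 0.45 points. The 10 genes with the highest TPM in a library took 13% to 15.1% of all TPM in HepG2 libraries and 5.86% to 7.02% in Caco-2 libraries. Because TPM sums to a fixed total, this moves in the opposite direction to the ribosomal share, and its part in the difference was not tested beyond the other scalings given below.

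The levels of single genes spanned a wide range although the proteins are needed in near-equal amounts. The highest member was RPS19, a 40S protein whose gene is mutated in Diamond-Blackfan anaemia, with a mean of 3207 TPM in Caco-2 and 2903 TPM in HepG2 cells. RPS2 (3030 TPM) and RPS27 (3029 TPM), both of the 40S subunit, came next in Caco-2 cells. In HepG2 cells RPL13 (2496 TPM), a 60S protein, and RPS18 (2396 TPM), a protein of the 40S head, came next. The median member stood at 797.8 TPM in Caco-2 and 739 TPM in HepG2 cells.

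The lowest member in both lines was RPL22, a 60S protein that binds viral RNAs and has a close paralog, with means of 99.7 TPM in Caco-2 and 100.1 TPM in HepG2 cells. RPL28 (134.2 TPM in Caco-2 and 101.3 TPM in HepG2 cells) and the X-linked 40S gene RPS4X (230.5 and 179.9 TPM) followed. The highest member was 32.2 times the lowest in Caco-2 cells and 29 times the lowest in HepG2 cells. The order was largely shared, with Pearson's r = 0.91 between the log2 means and Spearman's rho = 0.92 over the 77 genes, which share gene models and libraries. Of the 10 highest genes, 7 were common to both lines.

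**Figure D2:**
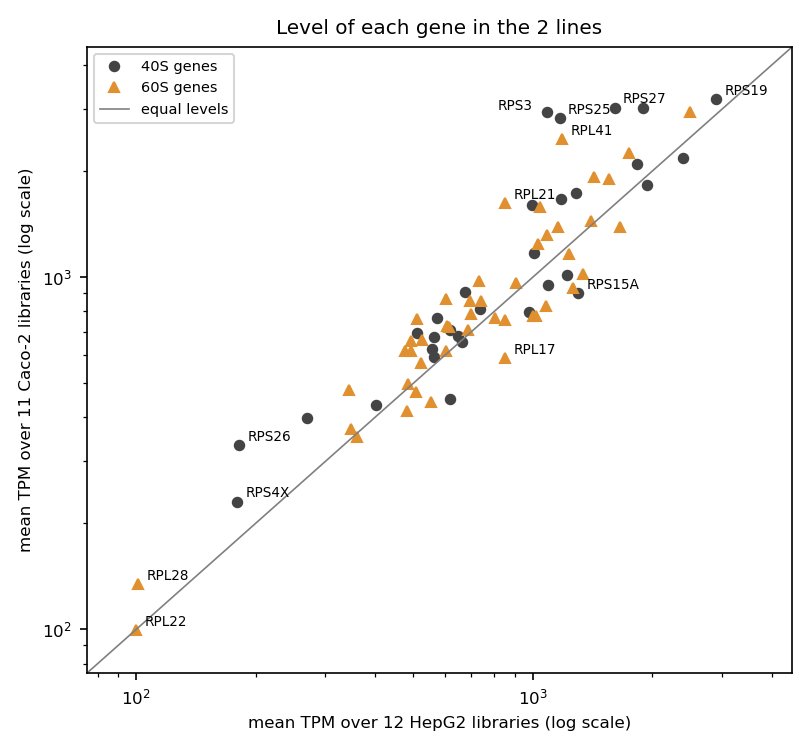
Mean TPM of each of the 77 genes in 12 HepG2 libraries (x axis) and 11 Caco-2 libraries (y axis), both on log scales; circles are 40S genes, triangles 60S genes, and the line marks equal levels. RPL22 lies lowest at about equal levels (99.7 and 100.1 TPM), RPS19 highest, and RPS3 and RPS25 farthest above the line.

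Within groups the spread was small for most members. The median SD of log2(TPM + 1) between libraries of a group was 0.10 in Caco-2 and 0.12 in HepG2 cells. The smallest pooled SD was that of RPL29, a 60S protein that cells can do without (0.05). RPS3A, a 40S protein that contacts initiation factors (0.07), and RPLP1, an acidic protein of the stalk (0.08), came next. The largest were those of RPL23 (0.34), RPL31 (0.27) and RPS15 (0.19).

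RPL23, a 60S protein that can also bind the p53 regulator MDM2, followed the library number more than any condition. In the 3 Caco-2 libraries numbered 3 it stood at 896.2 to 917.2 TPM, and in co-cultured control Caco-2 library 2, in the group without a library 3, it stood at 888.6 TPM. The other 7 Caco-2 libraries lay between 541.6 and 676.7 TPM. In HepG2 cells the 4 libraries numbered 3 lay between 777.4 and 928.6 TPM and the other 8 between 523.4 and 701 TPM, so the sets did not overlap in either line.

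RPL31, which sits near the mouth of the exit tunnel, showed the same split. The Caco-2 libraries numbered 3 lay between 2237 and 2289 TPM, co-cultured control library 2 at 2334 TPM and the other 7 between 1453 and 1817 TPM. In HepG2 cells the ranges were 1660 to 2092 TPM for libraries numbered 3 and 1239 to 1472 TPM for the other 8. RPS15, a protein of the 40S head, went the other way in HepG2 cells, at 1566 to 1686 TPM in libraries numbered 3 and 1855 to 2397 TPM in the others, whereas in Caco-2 cells its ranges overlapped.

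The balance of the subunits split by library number as well. The 40S genes gave 43.5% to 44.2% of the summed TPM in HepG2 libraries numbered 3 and 44.7% to 45.7% in the other 8. In Caco-2 cells the shares were 46.6% to 47% in libraries numbered 3, 46.9% in co-cultured control library 2 and 47.5% to 48.1% in the other 7. The same libraries had more genes above 0 TPM, 22637 to 23682 in Caco-2 libraries numbered 3, 23689 in co-cultured control library 2 and 20996 to 22126 in the others, and 21588 to 22416 against 19259 to 20873 in HepG2 cells. The depth of the libraries is unknown, and its part in these differences was not tested. Counts of genes that passed the test are given below with and without these libraries.

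**Figure D3:**
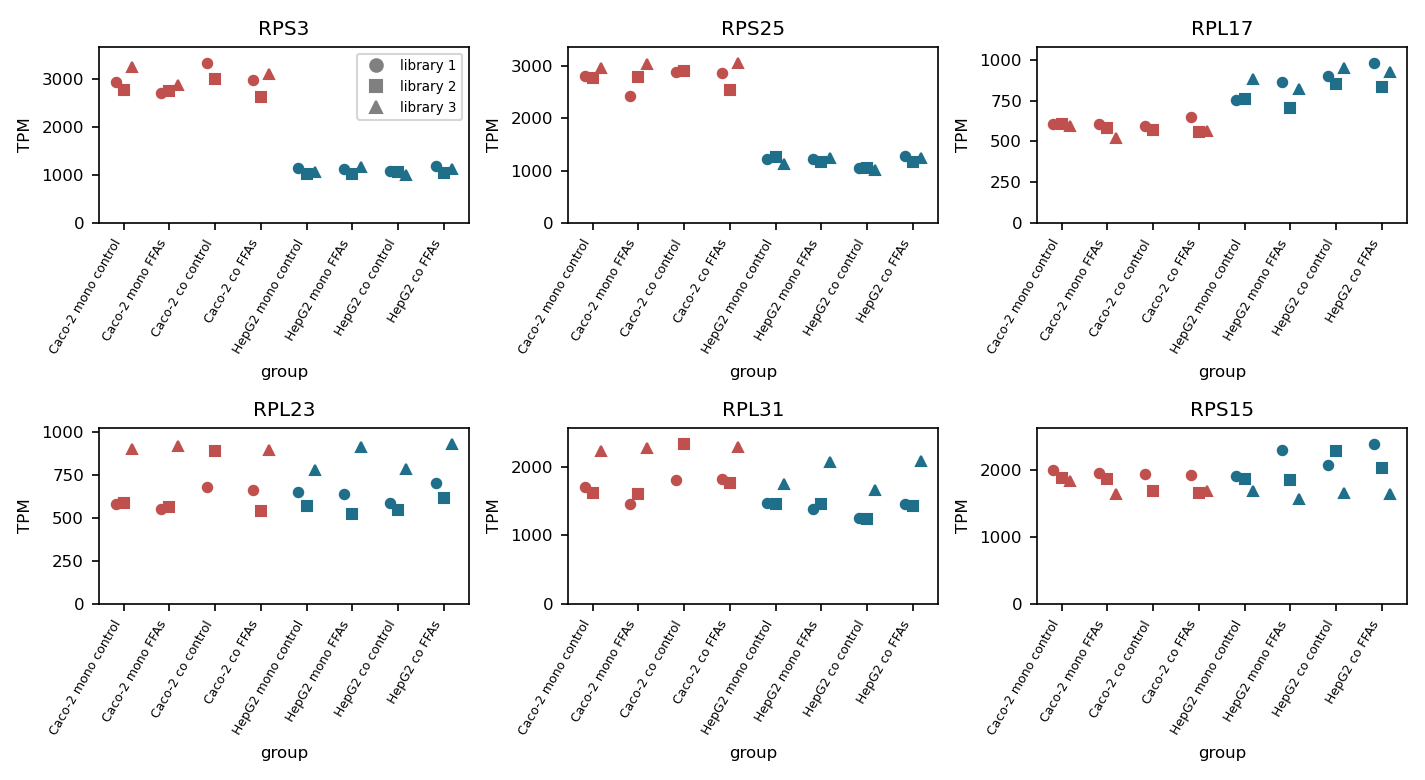
TPM of 6 of the genes in every library, by group; red is Caco-2, blue is HepG2, and circle, square and triangle are libraries 1, 2 and 3. RPS3 and RPS25 separate the lines and RPL17 does so in the other direction, whereas RPL23 and RPL31 are high in the triangles and in co-cultured control Caco-2 library 2 (888.6 and 2334 TPM).

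The lines were compared first, over all 4 conditions, with limma on log2(TPM + 1). Of the 77 genes, 45 passed as higher and 16 as lower in Caco-2 than in HepG2 cells (adjusted p under 0.05). Most genes differed between these lines: of 16495 genes tested, 79% passed, 49.8% higher and 29.2% lower in Caco-2 cells. The ribosomal protein genes (61 of 77) therefore passed about as often as genes in general. Without the libraries numbered 3 the count was 62, and without co-cultured control Caco-2 library 2 as well it was 60.

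The differences were mostly small, which is given as a description. Only 3 of them (3.9%) differed by at least 1 on the log2 scale, against 31.2% of all genes tested and 24.5% of the 3856 genes that averaged 50 TPM or more. The SD of the differences was 0.40 over the 77 genes and 1.44 over all genes. Small differences were not particular to them, since the 13 other TOP mRNAs described below lay between -0.20 and 0.73. The median difference of the 77 genes was 0.20, close to the 0.24 of all genes tested.

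The direction of the middle of this distribution depended on the scaling. With median-of-ratios scaling, which centres the typical gene, the median of all genes moved to 0.05 and that of the 77 genes to -0.04, and 24 of the 77 were called higher and 30 lower. Scaled to the total of the 77 genes, 26 were called higher and 34 lower, with a median of -0.06. That scaling removes by construction any shift that the 77 genes share, so it does not test one. Quantile normalization gave 46 higher and 19 lower, with a median of 0.20 against -0.02 for all genes. Under all 4 scalings 24 genes were called higher and 16 lower in Caco-2 cells. RPS16, RPS19, RPL39 and RPLP1 were called in opposite directions under different scalings.

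**Figure D4:**
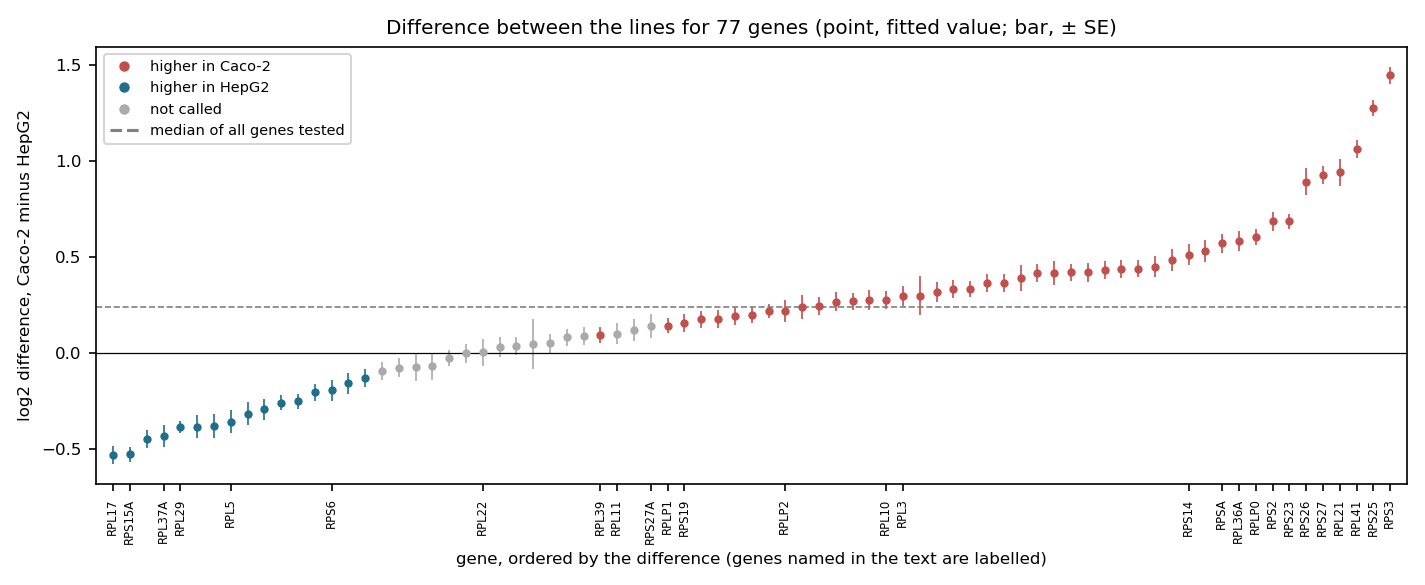
Fitted log2 difference between Caco-2 and HepG2 cells for each of the 77 genes, ordered by size, with the SE as bars; red genes passed as higher and blue genes as lower in Caco-2 cells, grey genes did not pass, and the dashed line is the median of all genes tested (0.24), with labels for genes named in the text. Values run from -0.53 for RPL17 to 1.45 for RPS3.

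RPS3, a protein at the mRNA entry of the 40S subunit that also acts in DNA repair, had the largest difference. It ranged over 2637, 2943 and 3344 TPM (lowest, median, highest of 11 libraries) in Caco-2 and over 1002, 1070 and 1197 TPM (12 libraries) in HepG2 cells. Every Caco-2 library was above every HepG2 library, and the log2 difference was 1.45 ± 0.04 (SE, adjusted p = 9.2e-17). It stayed between 1.19 and 1.60 under every alternative tried. The gene lies at chr11:75399515-75422280 on GRCh38.

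RPS25, a 40S protein that some viral and cellular mRNAs need for initiation, lies on the same chromosome (chr11:119015712-119018691) and followed. Its levels were 2424, 2859 and 3059 TPM in Caco-2 and 1008, 1193 and 1285 TPM in HepG2 cells, which did not overlap, with a log2 difference of 1.28 ± 0.04 (adjusted p = 3.7e-16). RPL41, which encodes the smallest protein of the 60S subunit, stood at 2181, 2335 and 2738 TPM against 1068, 1190 and 1292 TPM, a log2 difference of 1.06 ± 0.04 (adjusted p = 2.3e-14). These 3 genes were the only members past a difference of 1.

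Another 7 genes with separate libraries were higher in Caco-2 cells by 0.58 to 0.94 on the log2 scale. They were RPL21 (0.94), RPS27 (0.93), RPS26 (0.89), RPS23 (0.69), RPS2 (0.68), RPLP0 (0.60) and RPL36A (0.58). RPS23 sits in the decoding centre, RPS26 lines the mRNA exit, and RPLP0 anchors the stalk that recruits elongation factors. RPS26, of low level for the family, lay at 302.8, 329.2 and 382 TPM in Caco-2 and 154.5, 176.1 and 232.8 TPM in HepG2 cells. RPS27 lay at 2668, 3035 and 3306 TPM in Caco-2 and 1394, 1601 and 1898 TPM in HepG2 cells. All 7 kept their call under each alternative tried.

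RPS2 is uncertain in size because reads of a near-identical copy are counted apart. RPS2P5, a pseudogene row, lay at 302.7 to 380.1 TPM in Caco-2 and 92.4 to 120.3 TPM in HepG2 cells. Pseudogene rows of RPS2 took 10.2% of the sum of gene and pseudogenes in Caco-2 and 5.8% in HepG2 cells, the only member above 5% in either line. Over all members, the 1131 pseudogene rows held 0.64% to 0.79% of the combined TPM in Caco-2 libraries and 0.36% to 0.53% in HepG2 libraries. Adding them to their parent genes gave 62 calls instead of 61.

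Fewer genes went the other way, and 5 of them had HepG2 libraries that were all above the Caco-2 libraries. RPL17, which lines the exit tunnel (chr18:49488453-49492508), stood at 522.4, 594.2 and 649.3 TPM in Caco-2 and 706.4, 855.3 and 980.8 TPM in HepG2 cells, a log2 difference of -0.53 ± 0.05 (adjusted p = 3.2e-09). RPS15A, a 40S protein (chr16:18781295-18790383), stood at 780.2, 909.9 and 972.4 TPM against 1230, 1288 and 1408 TPM, also a difference of -0.53 ± 0.04 (adjusted p = 2.1e-10). RPL37A (-0.43 ± 0.06) and RPL29 (-0.39 ± 0.03) were also among the 5, and these 4 named genes were lower in Caco-2 cells under every alternative.

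Counting every member whose libraries did not overlap between the lines, 25 were higher in Caco-2 and 5 in HepG2 cells. Over all genes tested, 28.6% were higher in every Caco-2 library and 14.1% in every HepG2 library. The members' shares, 25 and 5 of 77, stood near the first and below the second of these.

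Genes known beyond the ribosome were spread over the range. RPSA, which also occurs as the laminin receptor, differed by 0.57 ± 0.05 (adjusted p = 1.6e-09), and RPS14, whose loss marks the 5q- syndrome, by 0.51 ± 0.05 (adjusted p = 5.2e-08). RPL5, which binds MDM2 together with RPL11 and 5S rRNA, was lower in Caco-2 cells by -0.36 ± 0.06 (adjusted p = 1.4e-05), whereas RPL11 gave 0.10 ± 0.05 and did not pass (adjusted p = 0.098). The direction of RPL11 turned to -0.13 with median-of-ratios scaling.

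RPS6, the 40S protein that S6 kinases phosphorylate, was lower in Caco-2 cells at 774.3, 972.3 and 1057 TPM against 951.8, 1087 and 1232 TPM in HepG2 cells. The ranges overlapped, and the difference was -0.20 ± 0.06 (adjusted p = 0.0036). RPL3, near the peptidyl transferase centre, gave 0.29 ± 0.05 and RPL10, which joins the 60S subunit late, gave 0.27 ± 0.04. Both calls were lost with median-of-ratios scaling, with scaling to the 77 genes and within mono-cultured FFAs-treated cells alone, RPL10 also within mono-cultured controls and RPL3 also within co-cultured FFAs-treated cells. RPS27A, a ubiquitin fusion, gave 0.14 ± 0.06 (adjusted p = 0.051).

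In the stalk the 3 genes did not move by the same amount. RPLP0 differed by 0.60 ± 0.04 (adjusted p = 1.4e-10), RPLP2 by 0.22 ± 0.06 (adjusted p = 0.0017) and RPLP1 by 0.14 ± 0.04 (adjusted p = 0.0026). With median-of-ratios scaling RPLP1 and RPLP2 turned to -0.09 and -0.01, whereas RPLP0 stayed at or above 0.35 under every alternative. RPL39, at the tunnel exit, gave 0.09 ± 0.04 (adjusted p = 0.041) and lost its call in 19 of 38 alternatives. RPS19 gave 0.15 ± 0.05 (adjusted p = 0.005), and RPL22 did not differ measurably, at 0.00 ± 0.07 (adjusted p = 0.97).

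The 2 subunits were alike in the centre and differed at the top. The median difference was 0.20 over both the 31 genes of the 40S and the 46 genes of the 60S subunit, and 19 and 26 of them passed as higher in Caco-2 cells. The mean level per 40S gene was 1288 ± 57.9 TPM (SD, n = 11 libraries) in Caco-2 and 1021 ± 56.5 TPM (n = 12) in HepG2 cells. For 60S genes the means were 962.3 ± 58.4 and 853.6 ± 54.1 TPM. The 40S share of the summed TPM was 47.4% ± 0.53 in Caco-2 and 44.6% ± 0.69 in HepG2 cells, and the lowest Caco-2 library (46.6%) stood above the highest HepG2 library (45.7%).

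The members lie on 21 chromosomes, and the differences can be set beside those of all genes there. Over these chromosomes the median of the members and the median of all genes tested had Pearson's r = 0.82 and Spearman's rho = 0.85, a description in which some chromosomes hold 1 member and the members are among all genes. On chromosome 11 all 5 members were higher in Caco-2 cells (median 0.43, all 915 genes 0.73), and on chromosome 12 all 4 were (median 0.75, all 897 genes 0.67). On chromosome 6 the 4 members had a median of -0.07 and all 873 genes -0.01, and on chromosome 18 RPL17, the only member, had -0.53 where all 234 genes had -0.25. On chromosome 17 the 6 members had a median of -0.14 and all 1025 genes 0.03.

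The effect of FFAs was tested within each line. No member passed in Caco-2 cells, in mono-culture, in co-culture or averaged over both, with limma with or without a trend, and 0 of 77 had an unadjusted p under 0.05 in any of these 3 comparisons, where 2.61%, 2.83% and 3.99% of all genes did. With the library number as a block, 0, 12 (15.6%) and 14 (18.2%) members did, against 3.83%, 9.71% and 8.85% of all genes, and no member passed. Few genes of any kind passed: the shares of 15081 genes tested were 0% in mono-culture, 0.0199% in co-culture and 0% on average. The median difference of the 77 genes was -0.07 in mono-culture, where 72 were lower with FFAs, and -0.05 in co-culture, where 61 were lower. The medians of all genes were 0.03 and 0.00. Both medians of the 77 genes leaned on single libraries: without control library 3 the mono-culture median was -0.01, with 44 genes lower, and without FFAs-treated library 2 the co-culture median was 0.00, with 37 genes lower and 40 higher. Members of a library rise and fall together, and the SD of their library medians within groups was 0.07 in Caco-2 cells, so the number of genes on one side is no count of independent events.

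RPLP0 in mono-culture showed the size of these differences. It stood at 1599, 1585 and 1767 TPM in control and 1406, 1570 and 1499 TPM in FFAs-treated Caco-2 cells, with every treated library below every control library. How many of all genes separate in this way was not counted. The log2 difference was -0.15 ± 0.08 (unadjusted p = 0.11, adjusted p = 1). RPL13A, a 60S protein released to silence inflammatory mRNAs, gave the largest average difference, -0.14 ± 0.08 (unadjusted p = 0.083, adjusted p = 0.99). The median SE of a member was 0.09 in mono-culture and 0.10 in co-culture.

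In HepG2 cells no member passed for FFAs either, with limma with or without a trend, and the share of all 14255 genes tested that passed was 0% in mono-culture, in co-culture and on average. The unadjusted p was under 0.05 for 0 members in mono-culture, for 1 in co-culture and for 1 on average, against 2.24%, 1.84% and 3.49% of all genes. Here the medians were positive, 0.02 in mono-culture with 53 genes higher and 0.08 in co-culture with 66 genes higher, against 0.00 and 0.01 for all genes. Leaving out single libraries moved the mono-culture median between -0.03 (without control library 2) and 0.09 (without FFAs-treated library 2), and the co-culture median between 0.05 (without FFAs-treated library 1) and 0.13 (without FFAs-treated library 2). The SD of library medians within groups was 0.15 in HepG2 cells, where library 2 had the lowest median of its group in all 4 groups.

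RPS25 was the member with the smallest unadjusted p for FFAs. In co-cultured HepG2 cells it stood at 1057, 1041 and 1008 TPM in control and 1285, 1161 and 1234 TPM with FFAs, and in mono-cultured HepG2 cells at 1222, 1267 and 1134 TPM in control and 1213, 1173 and 1237 TPM with FFAs. The co-cultured control libraries were thus the low group, below all 9 other HepG2 libraries. For how many of all genes this holds was not counted. The difference in co-culture was 0.24 ± 0.08 (unadjusted p = 0.0097, adjusted p = 1). RPL22 had the largest difference there, 0.28 ± 0.15 (unadjusted p = 0.086, adjusted p = 1).

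The difference of the FFAs effect between the lines did not pass for any member, and 0.0182% of all 16495 genes tested passed. Of the 77 genes, 76 had a lower value in Caco-2 than in HepG2 cells, with a median of -0.10 where all genes had 0.01, and 4 had an unadjusted p under 0.05 (5.19%, all genes 2.99%). With the library number as a block, 18 members did (23.4%, all genes 4.49%) and none passed. Because members of a library move together, these are no counts of independent events. Limma without a trend also called 0. Scaled to the total of the 77 genes, the median was 0.02, with 41 genes higher in Caco-2 cells, and the median of all genes moved to 0.10. That scaling makes the sum of the 77 genes equal in every library. It removes any shift that they share and so cannot test one. The FFAs effect did not differ measurably between co-culture and mono-culture for any member in either line, where 0% of all genes passed in both lines and 0 members had an unadjusted p under 0.05. Limma without a trend called 0 members there too.

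**Figure D5:**
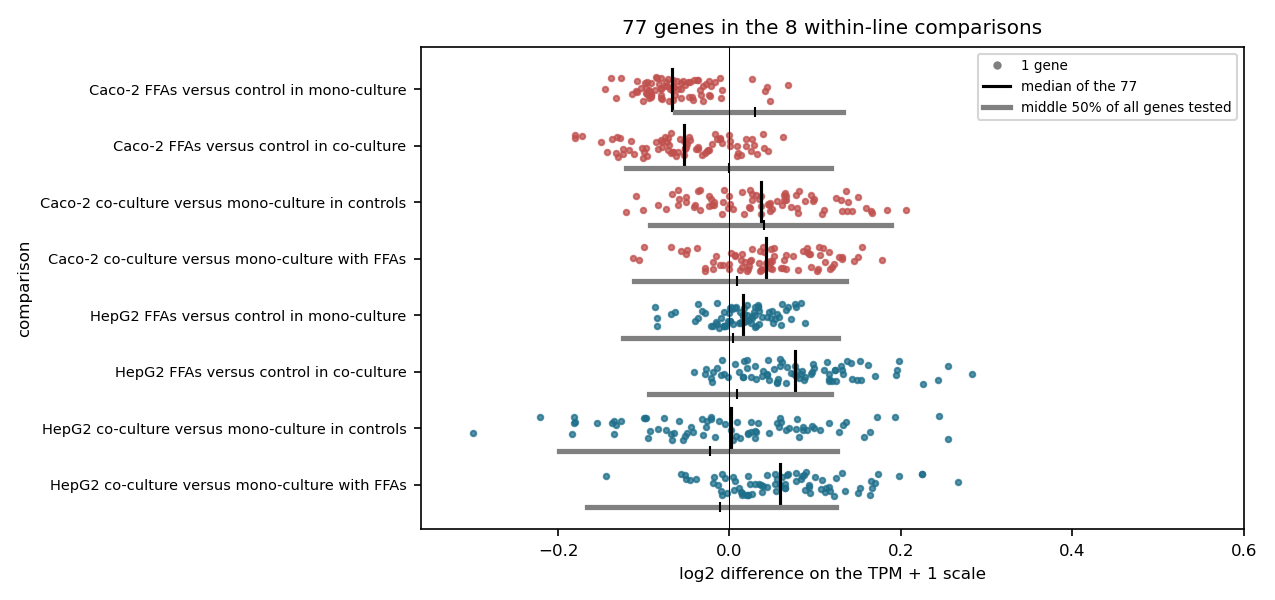
Log2 difference of each of the 77 genes in the 8 comparisons within a line; the black line is the median of the 77, and the grey bar below is the middle 50% of all genes tested with its median as a tick. Red is Caco-2 and blue is HepG2, the height of a point within a row is arbitrary, and most genes lie within ±0.2 with none past the adjusted threshold. Comparisons of one line share libraries.

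Co-culture was compared with mono-culture in the same way. In Caco-2 cells no member passed in controls, with FFAs or on average, with limma with or without a trend. The shares of all 15081 genes that passed were 0.0199%, 0% and 0%. The median of the 77 genes was 0.04 in all 3 comparisons, with 50, 60 and 52 genes higher in co-culture. Single libraries moved it: in controls it was 0.0054 without mono-cultured library 2 and 0.09 without mono-cultured library 3, and with FFAs it was 0.01 without mono-cultured library 1 or co-cultured library 1, 0.02 without co-cultured library 3 and 0.11 without co-cultured library 2. An unadjusted p under 0.05 was found for 1, 1 and 2 members (1.3%, 1.3% and 2.6%), fewer than the 5.43%, 6.09% and 10.5% of all genes.

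RPS27 was the member in which the cultures stood apart. It stood at 2826, 2863 and 3035 TPM in control and 2668, 2831 and 2945 TPM in FFAs-treated mono-cultured Caco-2 cells. In co-culture it stood at 3306 and 3297 TPM in control and 3093, 3279 and 3173 TPM with FFAs. No mono-cultured library reached the lowest library of the co-cultures. The share of all genes that separate in this way was not counted. The average difference was 0.18 ± 0.05 (unadjusted p = 0.0039), and it did not pass the adjustment over all genes (adjusted p = 0.31). In HepG2 cells RPS27 gave -0.12 ± 0.08 (adjusted p = 0.58).

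In HepG2 cells no member passed for co-culture, with limma with or without a trend, while 0% of all 14255 genes passed in controls, 0% with FFAs and 0.0561% on average. The medians of the 77 genes were 0.00 in controls, 0.06 with FFAs and 0.02 on average, and 1, 1 and 4 members had an unadjusted p under 0.05 (1.3%, 1.3% and 5.19%), below the 7.53%, 5.63% and 12.5% of all genes. Without FFAs-treated mono-cultured library 2 the last 2 medians were -0.02 and -0.01, and without control mono-cultured library 2 the first was -0.04. The 4 were RPL27 (0.24 ± 0.10), RPL35 (0.20 ± 0.08), RPL26 (0.19 ± 0.07) and RPL17 (0.18 ± 0.08), all of the 60S subunit and with adjusted p between 0.31 and 0.34. With the library number as a block, 6 genes passed in controls, 1 with FFAs and 492 on average, none of them a member.

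RPL22 and RPS25 were lowest in co-cultured control HepG2 cells. RPL22 stood at 131.8, 89.3 and 97.8 TPM in mono-cultured and 79.5, 80.5 and 95.8 TPM in co-cultured controls, which overlapped, with a difference of -0.30 ± 0.15 (unadjusted p = 0.071, adjusted p = 0.69). RPS25 gave -0.22 ± 0.08 in the same comparison (unadjusted p = 0.016, adjusted p = 0.63). These are the control libraries that the FFAs comparison in co-culture also used.

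The difference of the co-culture effect between the lines did not pass for any of the 77 genes, while 0.533% of all genes passed and 3 members had an unadjusted p under 0.05 (3.9%, all genes 14.6%). The median was 0.01. Limma without a trend called 0 members and quantile normalization called 1. The smallest adjusted p of a member was 0.12.

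Genes that work with ribosomal proteins were described from lists. Of 11 genes just outside the rule, 9 were tested between the lines, of which 3 passed as higher and 2 as lower in Caco-2 cells. RACK1, a scaffold bound to the 40S subunit, was higher by 0.33 ± 0.05 (adjusted p = 1.4e-05). The paralog RPL36AL was higher by 0.76 ± 0.09, the same direction as RPL36A. RPS27L, the paralog of RPS27 and a p53 target, was lower by -1.28 ± 0.08 (adjusted p = 2.5e-11), at 74 to 130.5 TPM in Caco-2 and 218.7 to 387.7 TPM in HepG2 cells, the opposite of RPS27. RPL7L1 was lower by -0.72 ± 0.06.

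RPL39L, a paralog of RPL39 known from male germ cells, was low in Caco-2 cells, at 5.82 to 14.5 TPM, and lay at 0 to 0.21 TPM in HepG2 cells. FAU gave -0.11 ± 0.07 and did not pass (adjusted p = 0.16). RPL22L1, the paralog of the low RPL22, lay at 16.8 to 47.5 TPM in HepG2 and 22.4 to 36.7 TPM in Caco-2 cells and did not pass.

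Among 13 other mRNAs with a TOP motif, 8 passed as higher and 2 as lower in Caco-2 cells, with a median of 0.30. EIF3F, an initiation factor subunit, gave 0.73 ± 0.08 and the elongation factor subunit EEF1G 0.68 ± 0.05, while the elongation factor EEF2 was lower by -0.20 ± 0.06 (adjusted p = 0.0031). Of 16 genes of the mTORC1 pathway, 8 were higher and 5 lower, among them the translation repressor EIF4EBP2 (1.66 ± 0.07) and its relative EIF4EBP1 (-0.66 ± 0.15), and LARP1, which binds TOP motifs (0.57 ± 0.06). Of 11 host genes of small nucleolar RNAs, 8 were higher and 2 lower, with GAS5 at 1.32. Of 78 mitochondrial ribosomal protein genes, 43 were higher and 18 lower, with a median of 0.21 near that of the cytosolic genes. These counts stand beside the background of 49.8% and 29.2% given above.

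Of 45 genes listed for ribosome biogenesis, 11 were higher and 19 lower in Caco-2 cells, with a median of -0.13. None passed within a line. For the co-culture effect, 44 of the 45 had values below 0 in Caco-2 cells (median -0.19), and 41 had values above 0 in HepG2 cells (median 0.27). Of all genes tested, 56.8% had values above 0 in Caco-2 and 45.6% in HepG2 cells. The difference between the lines had a median of -0.41 over these genes, where the 77 ribosomal protein genes had 0.01 and all genes 0.05. It passed for 4 of the 45, where 0.533% of all genes tested passed. They were BOP1 (-1.03 ± 0.16, adjusted p = 0.011), NOP14 (-0.64 ± 0.11, adjusted p = 0.014), RRP12 (-0.81 ± 0.14, adjusted p = 0.017) and RRP9 (-0.70 ± 0.15, adjusted p = 0.037). The 78 mitochondrial ribosomal protein genes went the same way by less. In Caco-2 cells 65 were below 0 (median -0.11), and in HepG2 cells 59 were above 0 (median 0.07). Their difference between the lines had a median of -0.16, and none passed. Genes of a list may move together within a library, so the numbers on one side are no counts of independent events. The lists were chosen with earlier results of these data known. No gene of the other lists passed for FFAs or co-culture in either line.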

How the data were processed

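Libraries were grouped by their labels. According to the study's methods and the submitters' processing notes, reads from rRNA, tRNA and the mitochondrial genome were removed with Bowtie2 2.1.0, STAR 2.7.1a aligned what was left (GRCh38, Ensembl 98), and the authors deposited TPM per gene and library from RSEM 1.3.0. TPM hold no counts, so depth and counting error are unknown, and RSEM's division of reads between members and their pseudogenes is part of the files. The labels give 0.5% serum during treatment, whereas the methods describe serum-free medium.

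All 4 groups of a line were fitted together, and all 8 groups for the comparisons between lines, as log2(TPM + 1) with limma 3.58.1 (eBayes with a trend, R 4.3.3), for genes that averaged 1 TPM or more in any group, with Benjamini-Hochberg adjustment over all of them at 0.05. A fold change on this scale understates that of low genes. The code was tested on simulated data. Alternatives were a pseudocount of 0.1, no filter, a minimum of 10 TPM, 3 other scalings, pseudogene rows added, no trend, a replicate block, only the groups compared, single conditions and each library left out. Fits without libraries numbered 3 were added after the data were seen. Positions come from GENCODE v44, of which 60295 of 60564 IDs matched. Python 3.11.15 was used for the rest.

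The members, lists and rules were chosen with earlier results of these data known. The genes named are the members called between lines (the 10 with the smallest p, and up to 10 a direction without overlap), the 3 largest rises and falls of a comparison without calls, the 3 highest and lowest levels, the 3 largest and smallest within-group SDs, and 16 genes with a known role. Library numbers paired the samples in 4 of 6 pairs of HepG2 groups by their correlations over all genes, in the data only and not in the labels. No per-sample columns were left unused. Proteins were not analysed here. Some genes that these rules pick are not reported here.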

Additional observations from a re-analysis of the deposited data

How the results depend on the processing

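No within-line comparison called a member under any alternative, and the comparison between lines called 43 to 65 of the 77 genes over its alternatives. The limits are the unknown depth, 2 or 3 libraries a group, and the scaling of the 2 lines. Medians over the 77 genes moved beyond the SD of library medians in 2 settings for the line comparison, to -0.035 with median-of-ratios scaling and -0.055 scaled to the members' total (0.20 as reported). Scaling to the members' total removes a shift shared by the members by construction. The difference between the lines in the co-culture effect called 1 member with quantile normalization instead of 0. In fits added after the data were seen, the median FFAs effect in co-culture minus that in mono-culture in Caco-2 cells moved from 0.01 to -0.066 without the libraries numbered 3, and to -0.070 without co-cultured control library 2 as well. The cause was not tested in any of these.

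The choice of scaling turned the sign of the difference between the lines for 19 of the 77 genes with median-of-ratios scaling, 21 scaled to the members' total and 2 with quantile normalization. Among the genes chosen to be named, those that turned with median-of-ratios scaling were RPLP1 (-0.092), RPLP2 (-0.014), RPS19 (-0.079), RPS27A (-0.094), RPL11 (-0.13), RPL22 (-0.23) and RPL39 (-0.14). Scaled to the members' total they were -0.11, -0.034, -0.099, -0.11, -0.15, -0.25 and -0.16. RPL22 was -0.21 with quantile normalization, -0.085 within mono-cultured controls, -0.011 within mono-cultured and -0.10 within co-cultured FFAs-treated cells. RPL11 was -0.012 within mono-cultured controls, and RPL39 was -0.028 within mono-cultured FFAs-treated cells. Without the libraries numbered 3, RPL11 and RPL22 were -0.0067 and -0.0092, and without co-cultured control Caco-2 library 2 as well -0.00096 and -0.060. RPLP2 for FFAs in co-cultured HepG2 cells turned to 0.0078 with quantile normalization and 0.0026 without the libraries numbered 3.

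Leaving out each library in turn changed the sign of many members within a line, for example from 61 to 37 lower for FFAs in co-cultured Caco-2 cells without FFAs-treated library 2. Among the genes chosen to be named, the following turned, none of which passed the test. For FFAs in mono-cultured Caco-2 cells RPL11 ranged from -0.027 to 0.14 and RPL22 from -0.0069 to 0.12. In co-cultured Caco-2 cells RPL23 ranged from -0.38 to 0.015, RPS10 from -0.038 to 0.11 and RPS27A from -0.027 to 0.15. Averaged over both cultures RPL22 ranged from -0.080 to 0.12 and RPS27A from -0.019 to 0.071. For the difference between cultures RPL23 ranged from -0.36 to 0.084 and RPL37 from -0.22 to 0.00020. For FFAs in mono-cultured HepG2 cells RPL24 ranged from -0.18 to 0.013 and RPS12 from -0.17 to 0.0070, and in co-culture RPLP2 from -0.10 to 0.017. On average RPL24 ranged from -0.083 to 0.015, RPL6 from -0.065 to 0.020 and RPLP2 from -0.069 to 0.045. The difference between cultures ranged from -0.19 to 0.0040 for RPL35 and from -0.18 to 0.0036 for RPS9. RPL23A ranged from -0.12 to 0.023 for co-culture with FFAs in HepG2 cells, and RPL22 from -0.048 to 0.053 between the lines.

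Same-numbered libraries were checked for pairing. Over all genes, their deviations from the group means correlated above 0.1 in 7 of 15 pairs in Caco-2 cells. In HepG2 cells they did so in 15 of 18 pairs. The numbers were thus not taken to pair the samples over a whole line. Over the members, same-numbered Caco-2 pairs lay at 0.37 to 0.81, except those with co-cultured control library 2 (-0.40 to -0.13). That library correlated at 0.40 to 0.59 with libraries numbered 3. Same-numbered HepG2 pairs lay at 0.23 to 0.86, except those with co-cultured control library 1 (-0.11 to -0.038). Pairs with different numbers reached 0.59 in both lines. Fits without a replicate block take no account of such pairing. Between single groups and over all genes, every same-numbered pair was above 0.1 in 4 of 6 pairs of HepG2 groups (co-culture against mono-culture in controls and with FFAs, and FFAs against control in mono-culture, among them) and in 0 of 6 in Caco-2 cells. By the same values over all genes, 5 of 11 Caco-2 and 10 of 12 HepG2 libraries correlated best with a library of their own number. This is a hint from the data and not from the design. With a replicate block the comparison between lines called 64 members instead of 61, and no other comparison called any. The block raised the number of members with an unadjusted p under 0.05. For FFAs in Caco-2 cells it rose from 0 to 12 in co-culture (15.6%, all genes 9.71%) and 14 on average (18.2%, all genes 8.85%). For co-culture in Caco-2 cells it rose to 16 in controls (20.8%, all genes 13.4%) and 19 on average (24.7%, all genes 16.6%). In HepG2 cells the block gave 8 for FFAs in co-culture (10.4%, all genes 3.98%). For co-culture in HepG2 cells it gave 7 in controls (9.09%, all genes 13.8%), 5 with FFAs (6.49%, all genes 11.7%) and 10 on average (13%, all genes 20.8%). Over all genes the block raised the calls for co-culture from 0 to 60 in Caco-2 and from 8 to 492 in HepG2 cells, and for the difference between the lines from 88 to 344. For the difference of the FFAs effect between the lines, the block gave 18 members with an unadjusted p under 0.05 (23.4%, all genes 4.49%) and 3 calls over all genes.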
